A study of Mus musculus with 16 samples.

Results

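The 10 genes described here encode chaperones, folding enzymes, degradation factors and 1 transcription factor of the endoplasmic reticulum (ER) unfolded protein response. They are *Hspa5*, *Hsp90b1*, *Calr*, *Pdia4*, *Sdf2l1*, *Creld2*, *Dnajb9*, *Herpud1*, *Edem1* and *Xbp1*. They were chosen by name as known targets of the response and not by their values, although earlier results of these data were known. They were found by gene symbol and Ensembl identifier among the 54393 genes of the count table. All 10 were among the 13234 genes expressed highly enough to be tested. The question was whether the stress response to doxycycline (DOX) in these cells reaches the ATF6 and XBP1 targets.

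The cells were mIMCD3, an epithelial line derived from collecting duct of the inner medulla in an SV40 T antigen transgenic mouse, labelled wild type in every group. After 10 days of growth on permeable filters, the cells received the vehicle DMSO for 3 days, DOX at 2 µg/mL for 3 days, DMSO for 6 days or DOX at 2 µg/mL for 6 days, with fresh medium each day. Each of these 4 groups has 4 libraries of polyadenylated RNA. Nothing in the labels says that the libraries of a group came from separate cultures, so the p-values measure the spread between these libraries, which may be technical. The labels name no transgene that DOX would switch on, and the comparison is between cells with and without the drug itself.

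Total estimated counts per library ran from 16933343 to 23960860, and 3 counts, taken as the detection floor, came to at most 0.177 CPM (counts scaled to the size of the library). That floor covers counting error only, and every value of the 10 genes lay far above it. Libraries of the same group correlated at 0.977 to 0.986 on a log scale, so none stood apart as a copy or as a failure. All 6 epithelial markers examined were expressed, whereas only 2 of 8 collecting duct markers reached a mean of 1 TPM (a measure scaled by transcript length as well as library size), and the water channel gene *Aqp2* was at a mean of 0.151 TPM. None of 4 fibroblast and 3 endothelial markers reached 1 TPM. Of 3 leukocyte markers only the lysosomal gene *Cd68* did (mean 16.02 TPM), while *Ptprc* and *Cd3e* lay at 0.151 and 0.00713 TPM.

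The unfolded protein response is the programme by which a cell adjusts the folding capacity of its ER. ATF6 is cut in the Golgi by site-1 and site-2 proteases and its released fragment enters the nucleus, IRE1 splices *Xbp1* RNA so that an active XBP1 protein is made, and PERK phosphorylates the translation initiation factor eIF2α, which lowers general protein synthesis and raises translation of ATF4. ATF6 and XBP1 raise ER chaperones and the machinery of ER-associated degradation (ERAD), often through a promoter sequence called the ER stress response element (ERSE). ATF4 raises amino acid synthesis and transport genes and the factor CHOP (*Ddit3*), and it can also be induced without ER stress, by other kinases of eIF2α, in what is called the integrated stress response. Doxycycline is a tetracycline antibiotic that also slows protein synthesis on mitochondrial ribosomes. Gene-level values do not show *Xbp1* splicing, ATF6 cleavage or PERK phosphorylation.

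The promoters are shown first, because ATF6 and XBP1 are known to act on several of these genes through an ERSE. RefSeq windows on GRCm38.p6, from 250 bases before to 50 bases after the start of each gene, were found for all 10 genes and searched on both strands. The ERSE was searched as CCAAT and CCACG with any 9 bases between them, the related ERSE-II as ATTGG and CCACG with any 1 base between them, the XBP1 site called UPRE as TGACGTGG, and the ATF4 and CHOP site called CARE as TGATGCAA. The letters CCACG close both ERSE forms, and the UPRE letters hold their reverse complement. An ERSE was present in 0.119% of all 32851 windows and in 4 of the 10 genes. The 10 were chosen as known targets of the response, so these shares are a description and not a test. The capitals below mark the matches, given on the strand of the gene from 5′ to 3′.
Hspa5, ERSE, chr2:34772020-34772048, plus strand: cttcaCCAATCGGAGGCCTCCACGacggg
Hsp90b1, 2 ERSE matches, chr10:86705519-86705670, minus strand: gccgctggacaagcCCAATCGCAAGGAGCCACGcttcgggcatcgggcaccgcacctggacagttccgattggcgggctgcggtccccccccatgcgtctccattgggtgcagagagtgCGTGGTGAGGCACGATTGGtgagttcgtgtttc
Calr, ERSE on the opposite strand, chr8:84847061-84847107, minus strand: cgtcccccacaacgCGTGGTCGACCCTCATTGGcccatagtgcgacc
Creld2, ERSE on the opposite strand, chr15:88819506-88819552, plus strand: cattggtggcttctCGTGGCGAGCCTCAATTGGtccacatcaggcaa
Herpud1, CARE on the opposite strand and ERSE-II, chr8:94386303-94386401, plus strand: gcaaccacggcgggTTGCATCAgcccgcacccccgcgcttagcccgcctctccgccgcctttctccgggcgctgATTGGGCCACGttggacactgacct

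*Herpud1* was thus the only 1 of the 10 with an ERSE-II, which 0.0365% of all windows hold, and the only 1 with a CARE, which 0.895% hold. A UPRE was in 0.676% of all windows and in 0 of the 10. The remaining 5 genes, *Xbp1*, *Dnajb9*, *Sdf2l1*, *Pdia4* and *Edem1*, held none of these exact letters in this window, which says nothing about sites elsewhere or sites with other letters.

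The levels of the genes were compared on the TPM scale, which divides by transcript length. In DMSO at 3 days *Calr*, encoding the lectin chaperone calreticulin, was at 425 ± 30.3 TPM (SD, n = 4), *Hsp90b1*, encoding the ER form of the HSP90 chaperone, at 408 ± 31.7, and *Hspa5*, encoding the chaperone BiP, at 349.8 ± 34.1. The range of *Hsp90b1* overlapped those of *Calr* and *Hspa5*, whereas *Calr* (403.1 to 467.5 TPM) lay wholly above *Hspa5* (311.2 to 389.5). These chaperone genes stood apart from *Pdia4*, a disulfide isomerase, at 85.2 ± 9.99 TPM. It was followed by *Herpud1*, a membrane protein of the ERAD complex, at 71.0 ± 6.72 and *Creld2*, a folding factor for secreted proteins, at 65.5 ± 7.47. *Sdf2l1*, which works with BiP and its co-chaperones, was at 51.9 ± 4.66 TPM and *Xbp1* at 32.3 ± 3.73. *Dnajb9*, a co-chaperone of BiP, was at 14.2 ± 0.959 TPM, and *Edem1*, which directs misfolded glycoproteins to degradation, was lowest at 11.1 ± 0.885.

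The order of the most abundant genes was different with DOX on the TPM scale. *Hspa5* then had the highest mean, 233 ± 16.7 TPM at 3 days and 313 ± 37.7 at 6 days, whereas *Calr* ranked 3 at 213 ± 28.5 and 281 ± 15.2, although the ranges of *Hspa5*, *Hsp90b1* and *Calr* overlapped from each to the next in both DOX groups. By CPM divided by the length of the longest transcript, *Hsp90b1* ranked 1, *Calr* 2 and *Hspa5* 3 in both DOX groups, so their order depended on the scale. The summed TPM of the 10 genes was 1387, 1446, 1552 and 1673 in the DMSO libraries of 3 days and 1078, 878, 879 and 914 in the DOX libraries of that time. At 6 days it was 1509, 1470, 1526 and 1618 with DMSO and 1088, 1213, 1237 and 1297 with DOX. The sums did not overlap between treatments at either time. TPM itself moved: the median log2(TPM + 1) difference between DOX and DMSO over all tested genes was -0.15 at 3 days and -0.05 at 6 days, so treatments were compared on CPM scaled by the trimmed mean of M-values (TMM), where the median of all genes was 0.0031 and -0.00064.

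**Figure D1:**
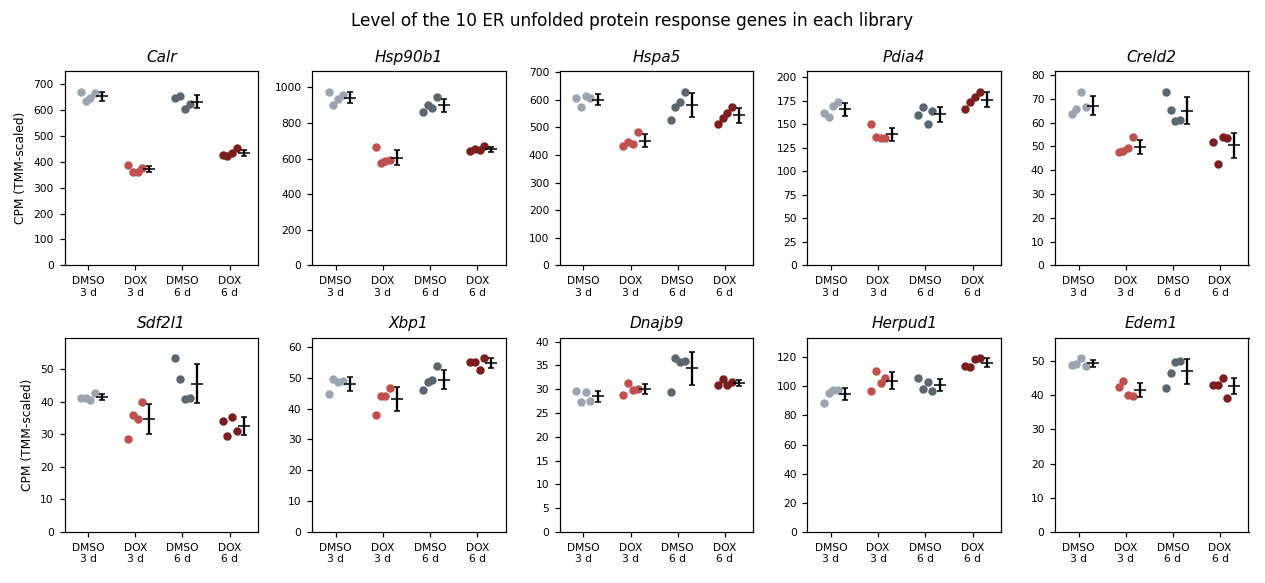
TMM-scaled CPM of the 10 genes in each library (vertical axis from 0) for DMSO and DOX at 3 and 6 days, with the mean and SD of the 4 libraries drawn to the right of each group. *Calr* and *Hsp90b1* are lower with DOX at both times, *Hspa5* is lower at 3 days, and the largest fitted rise among the 10 is 15.3% (*Herpud1* at 6 days, not called).

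After 3 days of DOX, 4 of the 10 genes were lower and 0 were higher. A gene is called where edgeR's glmTreat, which tests for a change beyond 1.2-fold, gave an adjusted p under 0.05 over all 13234 genes, and by this rule 7.22% of all genes were lower and 5.3% were higher. None of the 10 reached an unadjusted p under 0.05 upward in this test, and neither DESeq2 nor limma, at the same threshold, called any higher. Unadjusted p-values below also refer to a change beyond 1.2-fold, except for the difference between the times. Without a threshold edgeR called *Herpud1* higher (adjusted p = 0.0487), and the 4 called genes with *Pdia4*, *Edem1* and *Sdf2l1* lower. Of all genes it then called 3047 higher and 2935 lower. The median log2 fold change of the 10 was -0.25, against 0.0031 for all genes, and 8 of the 10 were below 0.

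*Calr* fell most. Its CPM was 672, 634, 646 and 666 with DMSO and 387, 362, 361 and 376 with DOX, so that the highest DOX library lay far below the lowest control. It fell by 0.82 on the log2 scale (SE 0.054, edgeR adjusted p = 1.92e-08), and the mean went from 654 ± 17.5 to 372 ± 12.5 CPM (SD, n = 4).

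*Hsp90b1* was at 977, 901, 936 and 958 CPM with DMSO and at 667, 573, 589 and 595 with DOX. The groups were apart by more than the spread within either of them. The log2 fold change was -0.64 (SE 0.061, edgeR adjusted p = 1.77e-05). The gene overlaps a pseudogene on the opposite strand, and a gene annotated as a processed transcript and a microRNA gene on its own strand. No source used here says whether reads were counted by strand.

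*Hspa5*, the gene most used as a marker of ER stress, was at 608, 573, 615 and 607 CPM with DMSO and at 431, 448, 441 and 485 with DOX. All DOX libraries lay below all controls. It fell by 24.8% (log2 fold change -0.41, SE 0.064, edgeR adjusted p = 0.0306). *Creld2* was at 63.6, 65.7, 73.0 and 66.6 CPM with DMSO and at 47.7, 48.2, 49.2 and 54.0 with DOX, again without overlap, and its log2 fold change was -0.43 (SE 0.077, edgeR adjusted p = 0.0379). Both calls were close to the limit. The call of *Hspa5* was lost without replicate 1, 3 or 4 of DMSO or replicate 2 or 3 of DOX at 3 days, where adjusted p reached 0.0746, and when genes of low counts were kept, and that of *Creld2* without replicate 3 or 4 of DMSO or 1, 2 or 3 of DOX, where it reached 0.122. Their log2 fold changes then stayed between -0.45 and -0.39 and between -0.47 and -0.39. With DESeq2 only *Hsp90b1* and *Calr* were called at 3 days.

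Another 3 genes had DOX libraries wholly below the controls at 3 days without being called, namely *Pdia4* (166 ± 7.2 CPM with DMSO and 139 ± 6.98 with DOX), *Edem1* (49.3 ± 0.984 and 41.5 ± 2.09) and *Sdf2l1* (41.3 ± 0.951 and 34.8 ± 4.65). Their log2 fold changes were close to -0.25, near the tested size of 1.2-fold. In all, 7 of the 10 had non-overlapping groups in the lower direction, as 19.8% of all genes did, and 0 in the higher direction, as 18.8% did. *Xbp1* overlapped, at 44.6, 49.5, 48.5 and 48.8 CPM with DMSO and 37.8, 44.1, 43.9 and 46.8 with DOX, with a log2 fold change of -0.15 (95% interval -0.28 to -0.02).

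*Dnajb9* and *Herpud1* were the 2 genes with a positive estimate at 3 days. *Dnajb9* was at 29.6, 27.4, 29.5 and 27.6 CPM with DMSO and 28.9, 31.3, 29.9 and 30.2 with DOX (log2 fold change 0.08, 95% interval -0.05 to 0.21). *Herpud1* was at 88.7, 95.3, 97.5 and 97.7 CPM and at 97.0, 111, 102 and 106 (0.13, interval 0.03 to 0.24). In both genes the groups overlapped, and the sign turned on the TPM scale, to -0.10 and -0.03 on log2(TPM + 1).

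**Figure D2:**
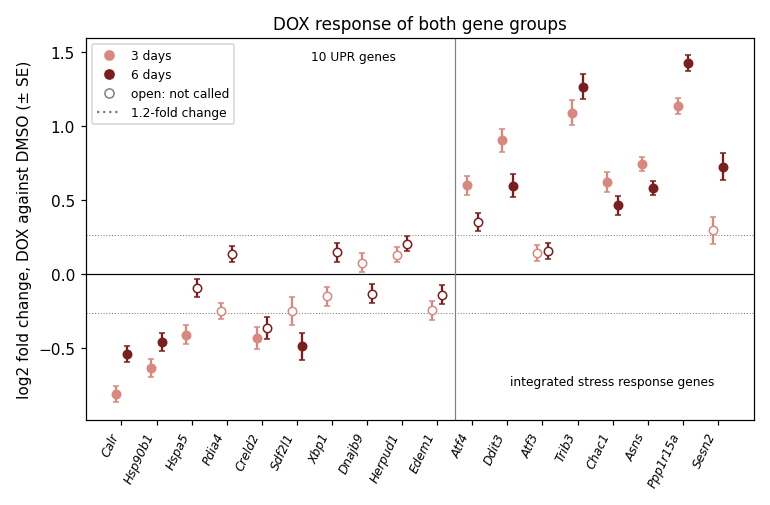
Log2 fold change of DOX against DMSO (TMM-scaled counts, edgeR, bars are SE) at 3 days (light) and 6 days (dark) for the 10 ER genes on the left and 8 genes of the integrated stress response on the right; filled points were called and dotted lines mark a 1.2-fold change. The called ER genes lie below 0 and the called stress response genes above it. Both sets were chosen with earlier results of these data known.

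After 6 days of DOX, 3 of the 10 genes were lower and 0 were higher by edgeR, against 11.6% and 10% of all genes. Again none of the 10 had an unadjusted p under 0.05 for a rise beyond 1.2-fold, and DESeq2 and limma called 0 higher at that threshold. Without a threshold edgeR called *Herpud1* (adjusted p = 0.00271) and *Pdia4* (adjusted p = 0.0433) higher, and *Calr*, *Hsp90b1*, *Sdf2l1* and *Creld2* lower. Of all genes it then called 3396 higher and 3306 lower. The median of the 10 was -0.14, against -0.00064 for all genes. *Calr* was at 649, 656, 603 and 625 CPM with DMSO and 428, 423, 434 and 452 with DOX, a log2 fold change of -0.54 (SE 0.054, edgeR adjusted p = 4.16e-05). *Hsp90b1* was at 865, 899, 884 and 949 CPM with DMSO and 641, 652, 648 and 674 with DOX, a log2 fold change of -0.46 (SE 0.061, edgeR adjusted p = 0.00317). Neither gene had overlapping groups, and both calls held in all 28 alternative settings at either time.

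*Sdf2l1* was the third gene called at 6 days, at 53.3, 46.9, 40.7 and 41.0 CPM with DMSO and 34.0, 29.3, 35.3 and 31.0 with DOX. The groups did not overlap, although the controls were spread widely, with replicate 1 highest. The log2 fold change was -0.49 (SE 0.092, edgeR adjusted p = 0.0154), and the call was lost with DESeq2 and without replicate 1 of DMSO or replicate 2 of DOX, where adjusted p reached 0.0697. *Creld2* was at 73.1, 65.2, 60.6 and 61.3 CPM with DMSO and at 52.0, 42.6, 53.8 and 53.7 with DOX, without overlap but not called (log2 fold change -0.37, SE 0.076, edgeR adjusted p = 0.117).

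*Hspa5* lay close to its controls at 6 days. It was at 527, 573, 593 and 629.9 CPM with DMSO and at 512, 534, 553 and 575 with DOX, and the groups overlapped. Its log2 fold change was -0.10 (95% interval -0.22 to 0.03). *Herpud1* was the only gene of the 10 with DOX libraries wholly above the controls, at 106, 97.8, 103 and 96.8 CPM with DMSO and 114, 113, 119 and 119 with DOX, as 22.1% of all genes had at 6 days. Its rise of 0.21 (95% interval 0.10 to 0.31) was not called, since most of the interval lies within 1.2-fold, and it was called only when no threshold was set. In the lower direction 4 of the 10 did not overlap (*Calr*, *Hsp90b1*, *Sdf2l1* and *Creld2*), as did 20.9% of all genes.

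The other genes had overlapping groups at 6 days. *Xbp1* was at 46.1, 48.6, 49.2 and 53.7 CPM with DMSO and at 55.1, 55.0, 52.4 and 56.3 with DOX (log2 fold change 0.15, 95% interval 0.02 to 0.27), and *Pdia4* at 159, 168, 149.8 and 164 CPM with DMSO and 166, 174, 179 and 185 with DOX (0.13, interval 0.03 to 0.24). *Dnajb9* was at 29.3, 36.5, 35.7 and 36.0 CPM with DMSO and 31.0, 32.1, 30.8 and 31.5 with DOX (-0.13, interval -0.26 to -0.01), where replicate 1 of DMSO lay apart from the other controls. *Edem1* was at 42.0, 46.5, 49.6 and 50.02 CPM with DMSO and 43.1, 43.0, 45.1 and 39.3 with DOX (-0.14, interval -0.26 to -0.02).

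The effect of DOX differed between the times for 4 of the 10 genes, each with a higher value at 6 days than at 3 days (edgeR's quasi-likelihood test of the difference, without a threshold; 7.44% of all genes were called in that direction). For *Pdia4* the difference of the log2 fold changes was 0.38 (SE 0.077, adjusted p = 0.00289), for *Hspa5* 0.32 (SE 0.090, adjusted p = 0.0201), for *Xbp1* 0.30 (SE 0.092, adjusted p = 0.0305) and for *Calr* 0.27 (SE 0.076, adjusted p = 0.0187). The RNA of *Hspa5* and *Pdia4* was thus nearer to control at 6 days, or on the other side of it, than at 3 days. None of the 4 passed when the difference had to exceed 1.2-fold. The call of *Hspa5* was lost without replicate 4 of DOX at 6 days (adjusted p = 0.0503). That of *Xbp1* was lost without any 1 of 7 libraries, namely replicate 2, 3 or 4 of DMSO or replicate 3 of DOX at 3 days, replicate 2 of DMSO at 6 days, or replicate 2 or 4 of DOX at 6 days (adjusted p up to 0.0633).

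No gene of the 10 was called lower in this test (9.58% of all genes were), with 1 at an unadjusted p under 0.05 and 0 called by DESeq2. *Dnajb9* had a difference of -0.21 (adjusted p = 0.116) that was called without replicate 1 of DMSO at 6 days (-0.28, adjusted p = 0.0125), and *Sdf2l1* one of -0.24 (adjusted p = 0.219) that was called without replicate 1 of DOX at 3 days (-0.32, adjusted p = 0.0424). *Hsp90b1* had 0.18 (adjusted p = 0.159) and was called without that same DOX library (0.23, adjusted p = 0.0307) and with a correction for length and GC content, with or without the replicate number as a block.

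Between 3 and 6 days of DMSO none of the 10, and 0 of all 13234 genes, were called by edgeR beyond 1.2-fold, and DESeq2 also called 0. In that edgeR test 172 genes had an unadjusted p under 0.05, none of them among the 10. Without a threshold edgeR called 43 of all genes higher and 19 lower. The libraries of both times overlapped for all 10. *Dnajb9* had the widest difference, from 28.5 ± 1.19 to 34.4 ± 3.38 CPM (SD, n = 4; log2 fold change 0.27, 95% interval 0.14 to 0.40), and its groups overlapped only through replicate 1 of 6 days. Between 3 and 6 days of DOX 0 of the 10 were called, with 2 at an unadjusted p under 0.05, where 1.37% of all genes were higher and 2.58% lower. The DOX libraries of 6 days were wholly above those of 3 days for 5 genes (*Hspa5*, *Xbp1*, *Herpud1*, *Pdia4* and *Calr*), as they were for 14.5% of all genes, and for 0 they were wholly below, as for 10.8%.

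The genes of the response's sensors and processing proteases moved in both directions. *Atf6* was at 85.3, 90.0, 95.4 and 94.4 CPM with DMSO and 131, 124, 120.1 and 125 with DOX at 3 days, and at 87.9, 85.4, 93.1 and 89.5 and then 152, 169, 177 and 169 at 6 days. It rose by 0.45 at 3 days (SE 0.056, edgeR adjusted p = 0.00374) and by 0.91 at 6 days (SE 0.056, adjusted p = 1.37e-09), and the groups did not overlap at either time. The difference between the times was 0.45 (SE 0.078, adjusted p = 0.00114). On the TPM scale the rise at 3 days was 0.25 and was not called by limma.

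*Ern1*, which encodes IRE1, was at 37.6, 40.0, 39.7 and 40.7 CPM with DMSO and 47.6, 40.9, 41.7 and 41.2 with DOX at 3 days. These groups lay side by side, with only replicate 1 of DOX well above the controls, and the log2 fold change of 0.12 was not called. At 6 days it was at 30.6, 30.0, 37.9 and 36.5 with DMSO and 52.1, 57.7, 58.6 and 60.0 with DOX, a rise of 0.76 (SE 0.075, edgeR adjusted p = 2.53e-06). The difference between the times was 0.64 (SE 0.106, adjusted p = 0.000825). With limma the call at 6 days was lost on log2(TPM + 1) (adjusted p = 0.0768) and the difference between the times on log2(TPM + 0.1) (adjusted p = 0.0503).

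*Eif2ak3*, which encodes PERK, was lower with DOX. It was at 23.6, 24.4, 27.3 and 30.0 CPM with DMSO and 20.9, 18.7, 16.8 and 17.5 with DOX at 3 days (log2 fold change -0.51, SE 0.095, edgeR adjusted p = 0.0173), and at 30.2, 24.2, 24.9 and 28.2 with DMSO and 13.5, 16.6, 15.5 and 16.7 with DOX at 6 days (-0.79, SE 0.095, adjusted p = 2.62e-05). No DOX library reached a control of its time. The call at 3 days was lost with DESeq2, on the TPM scale, with a correction for length and GC content, and without replicate 4 of DMSO or replicate 3 of DOX, where adjusted p reached 0.0852.

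The remaining sensor genes were not called at 3 days. At 6 days *Mbtps2*, encoding the site-2 protease that cuts ATF6, rose from 39.6 ± 2.26 to 54.6 ± 2.33 CPM (log2 fold change 0.46, SE 0.061, edgeR adjusted p = 0.00273). *Atf6b*, encoding the relative of ATF6, rose from 42.0 ± 3.8 to 55.9 ± 3.91 CPM (0.41, SE 0.073, adjusted p = 0.0336). The *Atf6b* call was lost with DESeq2, on the TPM scale, with the length and GC correction, and without replicate 3 or 4 of DMSO or 2, 3 or 4 of DOX at 6 days, where adjusted p reached 0.14. *Mbtps1*, encoding the site-1 protease, was at 132 ± 7.94 and 158 ± 10.3 CPM and was not called (0.26, adjusted p = 0.588). On the TPM scale *Mbtps2* was not called either.

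**Figure D3:**
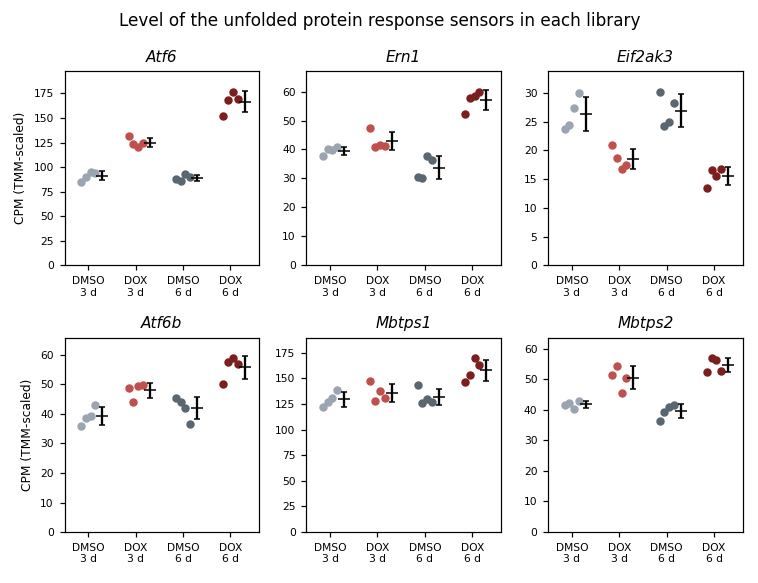
TMM-scaled CPM of the sensor and protease genes in each library (vertical axis from 0), with mean and SD to the right of each group. *Atf6* is higher with DOX at both times, *Ern1* at 6 days, and *Eif2ak3*, which encodes PERK, is lower with DOX at both times.

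In the integrated stress response the called genes were higher with DOX, and not every gene was called. This list, like the other lists below, was chosen with earlier results of these data known. Its counts are therefore a description and not a test. Of 16 genes listed, 9 were higher and 0 lower at 3 days, where 5.3% of all genes were higher, and 10 were higher and 0 lower at 6 days, where 10% were, by edgeR, with 0 lower at an unadjusted p under 0.05 and 0 lower by DESeq2 at either time. The median log2 fold change was 0.56 at 3 days and 0.52 at 6 days. On the TPM scale limma called 6 higher at each time. *Vldlr*, a lipoprotein receptor gene named after its values were seen, was at -0.31 and -0.27 and was not called. *Ddit3* was at 200.3, 183, 196 and 163 CPM with DMSO and 308, 357, 356 and 370.1 with DOX at 3 days (log2 fold change 0.90, SE 0.078, adjusted p = 4.53e-07), and at 195 ± 13.7 and 295 ± 27.7 at 6 days (0.60, SE 0.077, adjusted p = 0.000288). *Atf4* rose by 0.60 at 3 days (601 ± 12.5 to 911 ± 74.3 CPM, adjusted p = 8.56e-05) and was at 0.35 at 6 days (adjusted p = 0.106).

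Within this list *Ppp1r15a*, whose product restores eIF2α by removing its phosphate, rose by 1.13 and 1.43 at 3 and 6 days (edgeR adjusted p = 6.02e-11 and 1.68e-13). *Trib3*, a pseudokinase induced by ATF4 and CHOP, rose by 1.09 and 1.27. *Asns*, asparagine synthetase, rose by 0.75 and 0.58, and *Chac1*, which breaks down glutathione, by 0.62 and 0.46. *Slc7a11*, a cystine transporter, rose by 1.24 and 1.59, and *Cth*, which makes cysteine, by 1.49 and 1.41. *Sesn2* had 0.30 at 3 days (not called) and rose by 0.73 at 6 days, and *Atf3* had 0.14 and 0.16 and was called at neither time. A ratio chosen after the values were seen sets 1 gene of each group side by side: *Ddit3* TPM per *Hspa5* TPM was 0.765 to 1 in the DMSO libraries of 3 days and 1.996 to 2.3 in those with DOX, and 0.848 to 1.1 and 1.33 to 2.02 at 6 days. It did not overlap between treatments at either time. At 3 days this follows from the rise of *Ddit3* and the fall of *Hspa5* given above. At 6 days it mainly repeats the rise of *Ddit3*, so the ratio is a description only.

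Other genes of the ER and its folding machinery were called in both directions, and their counts stand beside 5.3% of all genes higher and 7.22% lower at 3 days and 10% and 11.6% at 6 days. Of 23 other ER chaperones and folding enzymes tested (*Fkbp11* fell under the limit on low counts), 0 were higher and 2 lower at 3 days by edgeR, with a median of -0.18. There were 4 above at an unadjusted p under 0.05, and DESeq2 called 0 higher. The 2 that fell were *Pdia6* (log2 fold change -0.48), a disulfide isomerase, and *Dnajc3* (-0.41), a co-chaperone of BiP; both were named after their values were seen, as the only ones called. At 6 days 3 were higher and 3 lower, among them *Dnajc1* (0.57) and again *Dnajc3* (-0.39), also named after their values were seen. *Sil1*, the nucleotide exchange factor of BiP, rose from 39.3 ± 4.91 to 73.0 ± 5.13 CPM (0.89, adjusted p = 5.17e-08) and *Pdia5* from 14.8 ± 1.08 to 22.0 ± 0.266 (0.58, adjusted p = 0.000387). *Manf*, a secreted ER stress factor, fell from 72.0 ± 4.08 to 51.8 ± 2.72 CPM (-0.48, edgeR adjusted p = 0.0132) and *Fkbp2*, a prolyl isomerase, from 59.3 ± 8.02 to 44.6 ± 3.08 (-0.41, adjusted p = 0.0435). DESeq2 called neither of the 2 falls, and that of *Fkbp2* was lost without any 1 of 5 libraries (replicate 3 of DMSO at 3 days, 1 or 2 of DMSO or 2 or 4 of DOX at 6 days), with adjusted p up to 0.223. *Pdia5* was not called on the TPM scale. In the difference between the times 8 of the 23 were higher and 1 lower, against 7.44% and 9.58% of all genes.

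ERAD genes were not called at 3 days in either direction, by edgeR or DESeq2, among 20 tested, with 3 lower and 0 higher at an unadjusted p under 0.05, while limma on the TPM scale called 1 lower. At 6 days 3 were higher, including *Sel1l* (0.43; named after its value was seen), and 1 lower. *Os9*, a lectin that recognises misfolded glycoproteins, rose from 65.5 ± 4.25 to 98.3 ± 6.71 CPM (0.59, edgeR adjusted p = 9.93e-05), and it was not called on the TPM scale. *Derl3*, a channel component of ERAD, fell from 3.17 ± 0.278 to 1.14 ± 0.251 CPM (-1.46, SE 0.213, adjusted p = 4.42e-05), at a low level throughout. In the difference between the times 5 of the 20 ERAD genes were higher and 1 lower.

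Genes of protein entry into the ER and of glycosylation were called in 1 direction within each time and in both in the difference between the times. Of 17 translocon and signal peptidase genes 0 were called at 3 days, with 0 at an unadjusted p under 0.05 and 0 by DESeq2, and 2 fell at 6 days, when 11.6% of all genes were lower: *Spcs3*, a signal peptidase subunit (200.1 ± 19.5 to 132 ± 0.94 CPM, -0.60, edgeR adjusted p = 1.34e-05), and *Sec61g*, a translocon subunit (20.5 ± 2.68 to 13.8 ± 2.3 CPM, -0.57, adjusted p = 0.0148). The *Sec61g* groups overlapped, and its call was lost with DESeq2 and without replicate 2 of DMSO at 6 days (adjusted p = 0.0555). Of 9 oligosaccharyltransferase genes, 1 was lower at 3 days and 3 at 6 days, with *Magt1* at -0.61 and -0.67 and *Ostc* at -0.55 at 6 days (edgeR adjusted p = 0.00274); the remaining 1 was *Dad1* (-0.51), named after its value was seen. In the difference between the times 1 translocon or signal peptidase gene was higher and 6 were lower, and 2 oligosaccharyltransferase genes were higher and 3 lower. None of the 12 ER to Golgi transport genes was called at 3 days, with 1 higher and 0 lower at an unadjusted p under 0.05 and 0 by DESeq2. At 6 days the cargo receptor gene *Lman1* rose (0.40, edgeR adjusted p = 0.0305), which was lost with DESeq2, on the TPM scale, and without replicate 2 or 3 of DMSO or 3 or 4 of DOX at 6 days (adjusted p up to 0.101).

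Cytosolic heat shock genes, which answer to misfolding outside the ER, were called lower at 3 days and in both directions at 6 days. Of 10 listed, 2 fell at 3 days, when 7.22% of all genes were lower. They were the near-identical *Hspa1a* (-0.73) and *Hspa1b* (-0.79), between which reads may be split and which were named after their values were seen. At 6 days 1 was higher and 1 lower, near the 10% and 11.6% of all genes. At 6 days *Hsp90ab1*, a cytosolic HSP90, rose from 1858 ± 25.3 to 2501 ± 141 CPM (0.43, edgeR adjusted p = 0.0162, not called on the TPM scale) and *Hspb1*, a small heat shock protein, fell from 247 ± 23.2 to 163 ± 26.6 (-0.60, adjusted p = 0.00115).

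**Figure D4:**
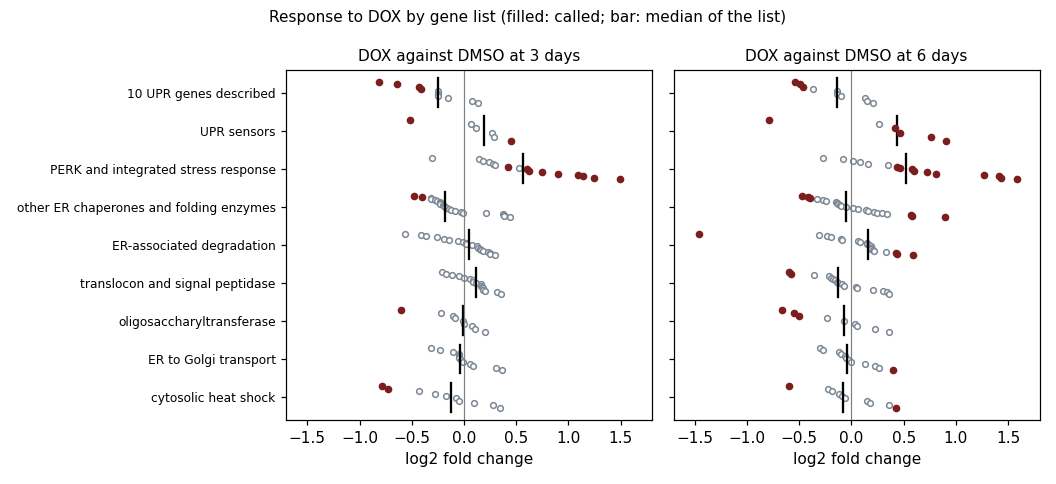
Log2 fold change of DOX against DMSO (horizontal axis) for every tested gene of each list at 3 days (left) and 6 days (right); filled points were called by edgeR, open points were not, and the black bar is the median of the list. The integrated stress response has its median at 0.56 and 0.52, and the 10 UPR genes at -0.25 and -0.14. The lists were chosen with earlier results of these data known.

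The genes called at 3 days among the 10 were *Hspa5*, *Hsp90b1*, *Calr* and *Creld2*, the same 4 genes whose windows held an ERSE. This coincidence was seen, and the genes of this paragraph were named, after the values were known, and it is given as a description. It rests on calls near the limit. DESeq2 and the fits without replicate 3 or 4 of DMSO or 2 or 3 of DOX at 3 days called only *Hsp90b1* and *Calr*, and without a threshold *Pdia4*, *Edem1* and *Sdf2l1*, whose windows hold no ERSE, were lower too. At 6 days *Hspa5* and *Creld2* were not called and *Sdf2l1* was. Among all genes with a window, 37 have an ERSE in a window, of which 15 were tested. Of these 15, 6 were lower and 0 higher at 3 days (median -0.41), against 7.22% and 5.3% of all tested genes. All 6 were ER chaperone or folding genes, and they include the 4 called genes of the 10. Without the 10 genes, 2 of the remaining 11 were lower (*Pdia6* and *Dnajc3*) and their median was -0.18. At 6 days 5 of the 15 were lower and 1 was higher, against 11.6% and 10% of all tested genes. The lower ones were *Derl3*, *Calr*, *Hnrnpa3*, *Hsp90b1* and *Dnajc3*, and the higher one was the zinc finger gene *Zfp57* (0.80). *Herpud1*, whose window holds an ERSE-II and a CARE in place of an ERSE, had positive estimates at both times on the CPM scale and -0.03 on the TPM scale at 3 days. Of the 72 tested genes with a CARE in a window, 22.2% were higher and 9.72% lower at 3 days, against 5.3% and 7.22% of all tested genes, and 22.2% and 11.1% at 6 days, against 10% and 11.6%. The 9 tested genes with an ERSE-II had a median of 0.13 at 3 days and 0.21 at 6 days, with 2 of them below 0 at each time. Of these 9, 2 were higher and 0 lower at 3 days, against 5.3% and 7.22% of all tested genes. At 6 days 4 were higher and 0 lower, against 10% and 11.6%. *Herpud1* was not among those called. Of the 100 tested genes with a UPRE, 3% were higher and 6% lower at 3 days, and 9% and 11% at 6 days.

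**Figure D5:**
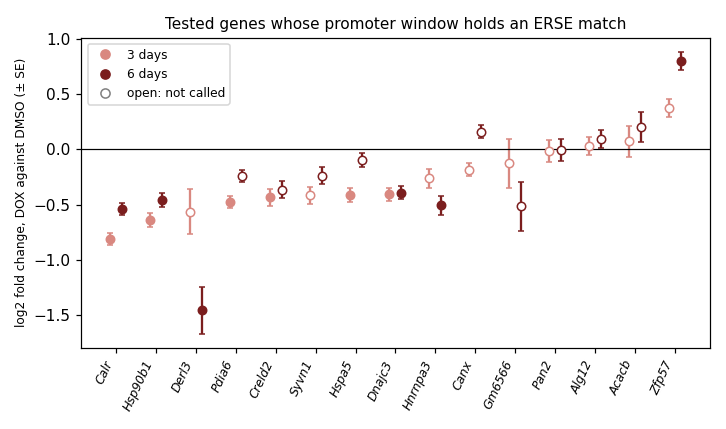
Log2 fold change of DOX against DMSO (edgeR, bars are SE) at 3 days (light) and 6 days (dark) for the 15 tested genes whose promoter window holds an ERSE, ordered by the value at 3 days; filled points were called. The 6 genes called at 3 days lie below 0, and *Zfp57* is the only 1 called above 0 at 6 days.

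For every gene of the 10 that was called, the libraries of both treatments did not overlap at that time. The median deviation of the 10 genes from their own group mean ran from -0.06 in replicate 1 of DOX at 3 days to 0.05 in replicate 4 of DMSO at 6 days on the log2 scale, and between 2 and 8 of the 10 lay above the group mean in each library. The largest single deviations were -0.27 (*Sdf2l1* in replicate 1 of DOX at 3 days) and 0.24 (*Sdf2l1* in replicate 1 of DMSO at 6 days).

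The summed TPM of the 6 epithelial markers moved with the treatment, at 2125 to 2359 with DMSO and 1570 to 1820 with DOX at 3 days and at 2327 to 2586 and 1590 to 1799 at 6 days. The TPM scale itself moved with DOX, as given above. The sum of the 8 collecting duct markers, low throughout, was 4.45 to 5.54 and 2.09 to 3.40 at 3 days and 4.27 to 7.27 and 2.49 to 3.98 at 6 days. Sums of the proximal tubule, fibroblast and endothelial markers overlapped between treatments at both times. The sum of the 3 leukocyte markers, nearly all *Cd68*, was 17.3 to 21.9 and 7.81 to 10.4 at 3 days and 22.6 to 24.6 and 11.3 to 12.7 at 6 days. The part of these shifts in the lower ER chaperone RNA was not tested. In bulk RNA, fewer cells with a transcript and less of it per cell cannot be told apart. The positions of the 10 genes in GENCODE for GRCm38 are, in the order of their levels, *Calr* at chr8:84841850-84846934 (minus strand), *Hsp90b1* at chr10:86690209-86705509 (minus), *Hspa5* at chr2:34771970-34777547 (plus), *Pdia4* at chr6:47796141-47813430 (minus), *Herpud1* at chr8:94386438-94395377 (plus), *Creld2* at chr15:88819646-88826683 (plus), *Sdf2l1* at chr16:17130138-17132383 (minus), *Xbp1* at chr11:5520659-5525893 (plus), *Dnajb9* at chr12:44205559-44210326 (minus) and *Edem1* at chr6:108828641-108859356 (plus). *Herpud1* overlaps an antisense gene and *Dnajb9* a microRNA gene on the opposite strand, and *Pdia4* a microRNA gene on its own strand. The promoter stretch shown for *Hspa5* (chr2:34772020-34772048) lies inside its GENCODE interval, because the GENCODE gene starts before the RefSeq start used for the window.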

How the data were processed

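RNA from 16 libraries was sequenced as pairs of 75 bases after oligo-dT selection with a directional kit. Per the labels and the paper's methods, the authors aligned reads to GRCm38.p6 with STAR 2.6.0c and quantified transcripts with salmon; its settings are not given in the sources used here. They deposited estimated counts per gene, not normalized, and TPM values, which divide by transcript length. Groups come from the sample labels. The genes and lists were chosen with earlier results of these data known.

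Estimated counts were rounded, a gene was kept if 4 or more libraries reached 1 CPM (13234 genes), and 1 robust quasi-likelihood model over the 4 groups was fitted with edgeR 4.0.16 (R 4.3.3) after TMM scaling. DOX was compared with DMSO at each time, and the times within each treatment, by glmTreat at a fold change of 1.2, and the difference between DOX effects by glmQLFTest without a threshold. Tests were two-sided, with Benjamini-Hochberg adjustment over all tested genes and a limit of 0.05. The SE is the log2 fold change divided by the square root of F. TPM served for levels between genes, and log2(TPM + 1) as an alternative with limma 3.58.1. DESeq2 1.42.0 on the rounded counts, RLE scaling, other filters, no threshold, no robust estimation, 8 libraries only, replicate number as a block, a length and GC offset (splines with 5 degrees of freedom) and leaving out each library were also tried. The order of levels was also checked on CPM per length.

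Total counts of 16933343 to 23960860 limit the precision of low genes. The calculations were tested on simulated counts. Named genes were the 10, the 6 sensor genes, the first 8 of the stress response list, and from each remaining list up to 2 rises and 2 falls with the largest change among those called at 6 days. Values of 1 gene that this rule names are left out here. Promoter sequences are RefSeq's on GRCm38.p6, and positions are from GENCODE M21.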

Additional observations from a re-analysis of the deposited data

Results flagged for a closer look

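Libraries far from the other 3 of their group, by a gap above Dixon's 95% limit for 4 values, were found for 9 of the named genes. Such gaps arise by chance in about 1 in 20 groups, and 156 groups were examined. Among the 10 ER genes, *Dnajb9* was at 29.3 CPM in replicate 1 of DMSO at 6 days, where the others were at 35.7 to 36.5. *Creld2* was at 42.6 CPM in replicate 2 of DOX at 6 days, where the others were at 52.0 to 53.8. *Pdia4* was at 149.7 CPM in replicate 1 of DOX at 3 days, where the others were at 135 to 136.

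Among the other genes, *Atf6b* was at 44.2 CPM in replicate 2 and *Ern1* at 47.6 CPM in replicate 1 of DOX at 3 days. *Sec61g* was at 19.2 CPM in replicate 1 of DOX at 3 days, where the others were at 23.5 to 24.4. *Pdia5* was at 13.2 CPM in replicate 3 and *Spcs3* at 171 CPM in replicate 1 of DMSO at 6 days, and *Manf* was at 55.8 CPM in replicate 1 of DOX at 6 days.

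The DOX effect differed between 6 and 3 days, by edgeR's test of the difference itself, for 15 named genes, with 11 above 0 and 4 below. The log2 differences were 0.38 for *Pdia4* (adjusted p = 0.00289), 0.32 for *Hspa5* (adjusted p = 0.0201), 0.30 for *Xbp1* (adjusted p = 0.0305) and 0.27 for *Calr* (adjusted p = 0.0187). They were 0.64 for *Ern1* (adjusted p = 0.000825), 0.45 for *Atf6* (adjusted p = 0.00114), 0.43 for *Sesn2* (adjusted p = 0.0283) and 0.29 for *Ppp1r15a* (adjusted p = 0.0109). Among the genes of the other lists they were 0.60 for *Os9* (adjusted p = 0.000655), 0.52 for *Sil1* (adjusted p = 0.00216) and 0.31 for *Lman1* (adjusted p = 0.0231), and below 0 they were -0.89 for *Derl3* (adjusted p = 0.0421), -0.66 for *Sec61g* (adjusted p = 0.0140), -0.66 for *Ostc* (adjusted p = 0.0019) and -0.39 for *Spcs3* (adjusted p = 0.00414). Leaving out 1 library kept the calls of *Os9*, *Sil1*, *Sec61g*, *Ostc* and *Spcs3*, the last of which was lost on the TPM scale. The call for *Sesn2* was lost on the TPM scale, with the length and GC offset and without any 1 of 9 libraries (replicate 2 or 4 of DMSO and 3 or 4 of DOX at 3 days, 2 or 4 of DMSO and 2, 3 or 4 of DOX at 6 days), with adjusted p up to 0.0751 when 1 library was left out. That for *Lman1* was lost on the TPM scale and without any 1 of 7 libraries (replicate 3 or 4 of DMSO and 2 or 3 of DOX at 3 days, 2 of DMSO and 3 or 4 of DOX at 6 days; adjusted p up to 0.0581). That for *Derl3* was lost on the TPM scale, without the filter on low counts, with the replicate block, with the length and GC offset, and without any 1 library other than replicate 4 of DMSO or 1 of DOX at 3 days or replicate 4 of DMSO or 2 of DOX at 6 days (adjusted p up to 0.0982).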

How the results depend on the processing

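Counts of the 10 genes called lower at 3 days were 2 with DESeq2, 7 without a fold-change threshold and 2 to 4 when 1 library was left out (2 without replicate 3 or 4 of DMSO or 2 or 3 of DOX at 3 days). Of all 13234 genes, DESeq2 called 606 lower at that time, the fit without a threshold 2935 and the fits without 1 library 803 to 1216. Without the threshold 1 of the 10 was higher at 3 days, 2 were at 6 days and 5 in DOX at 6 against 3 days. The matching counts over all genes were 3047, 3396 and 2066. When the difference between times had to pass 1.2-fold, 0 of the 10 were called, against 87 of all genes higher and 96 lower. With 1 library left out, the calls in the difference between times ran from 2 to 5 higher and 0 to 1 lower, and at 6 days from 2 to 3 lower. Over all genes these fits gave 580 to 1836 higher and 789 to 1951 lower in the difference, and 1376 to 1620 lower at 6 days. Deviations of same-numbered libraries had a mean correlation of -0.096 between DMSO and DOX at 3 days and -0.122 at 6 days. It was highest, at 0.122, between DMSO at 3 days and DOX at 6 days, and single values ran from -0.433 to 0.34. Such weak values give no sign of pairing by number but cannot exclude it. With the replicate block the counts were 4 lower at 3 days, 3 lower at 6 days and 4 higher in the difference. The matching counts over all genes were 912, 1483 and 767.

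Of 830 values of the 10 genes under other settings, 782 kept direction and call, 28 lost and 12 gained a call, and 8 changed sign, all of them not called; for the other named genes it was 1402, 109, 8 and 8 of 1527. At 3 days *Dnajb9* turned to -0.10 on log2(TPM + 1), -0.10 on log2(TPM + 0.1), -0.0127 with the length and GC offset and -0.0119 with that offset and the replicate block. On log2(TPM + 1) and log2(TPM + 0.1), values at 3 days turned to -0.0303 and -0.0307 for *Herpud1*, -0.0353 and -0.0406 for *Ern1*, -0.158 and -0.162 for *Mbtps1*, -0.0361 and -0.0386 for *Mbtps2* and -0.145 and -0.149 for *Atf3*, and the difference between times to -0.24 and -0.26 for *Edem1*. The median of all genes moved by -0.15 and -0.18 on these scales at 3 days; the cause of the single changes was not tested. Depth limited no gene of the 10, all of which lay above 27 CPM.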
